A study of Mus musculus with 8 samples.

Results

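Astrocyte marker genes were examined in the medial prefrontal cortex (mPFC) of mice after a test of conditioned place preference for methamphetamine. The genes were 31 named markers, taken as the rows of the deposited count table that carry those symbols, and all 31 were found among its 54532 genes and passed the filter on low counts that left 16745 genes. The choice used no measured value, although earlier results of these data were known when the list was drawn up. RNA was sequenced from 4 retrieval and 4 non-retrieval libraries, each from 2 to 3 pooled adult male C57BL/6 mice whose mPFC was dissected 1 h after the preference test. The labels give no other difference between the groups and do not record how non-retrieval animals were treated or which drug doses were given. Each library is a pool, so p-values measure the spread between pools of mice.

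Astrocytes are the glial cells that clear transmitter from the synaptic cleft, buffer potassium and water, supply neurons with metabolites and contact blood vessels with their end-feet. They are joined into networks by gap junctions and respond to injury by raising intermediate filament proteins, which astrocytes of white matter and of the brain surface carry in larger amounts than those of grey matter. In bulk tissue a lower marker level from fewer astrocytes and one from less RNA per astrocyte cannot be told apart. Several of the markers are also made elsewhere, Vim by endothelial, meningeal and ependymal cells, Glul and S100b by oligodendrocytes, Cst3 by microglia, and Clu and Sparcl1 by some neurons.

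The libraries held 25013503 to 29547978 counts each, and the 31 markers held 1.11% to 1.27% of them. The smallest count of any marker in any library was 118, for Mt2, and the largest was 95843, for Slc1a2. Retrieval replicates 2 and 4 stood apart in oligodendrocyte markers, with a summed level of 6051 and 5502 CPM (counts relative to the scaled library total) over 12 genes, against 3444 to 4188 CPM in the other 6 libraries. Retrieval replicate 2 also had the highest summed level of 9 striatal projection neuron markers, 654 CPM against 395 to 517 CPM elsewhere. Retrieval replicate 1 had the lowest summed level of the astrocyte markers themselves and is described below.

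Of the 31 markers, Vim rose in retrieval and the other 30 did not pass the test. This 1 call is 3.23% of the markers, beside 4.57% of all 16745 tested genes (3.67% higher and 0.902% lower; edgeR quasi-likelihood test, adjusted p under 0.05). Of the calls over all genes 80.3% were higher in retrieval, or 54.1% with a correction for the length and GC content of genes. An unadjusted p under 0.05 was reached by 3 markers, Vim, Gfap and Gjb6, which is 9.68% of them beside 18.5% of all tested genes. The log2 fold change was above 0 for 23 markers and below 0 for 8, and 47.8% of all tested genes had a value above 0. The median was 0.05 over the markers and -0.0095 over all tested genes. For 29 of the 31 markers the log2 fold change lay between -0.2 and 0.2, and for 28 the 95% interval lay within -0.5 and 0.5. The 4 libraries of one group lay apart from the 4 of the other for Vim and Gjb6, both higher in retrieval, whereas 11.1% of all tested genes had groups that did not overlap (6.59% with retrieval higher).

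**Figure D1:**
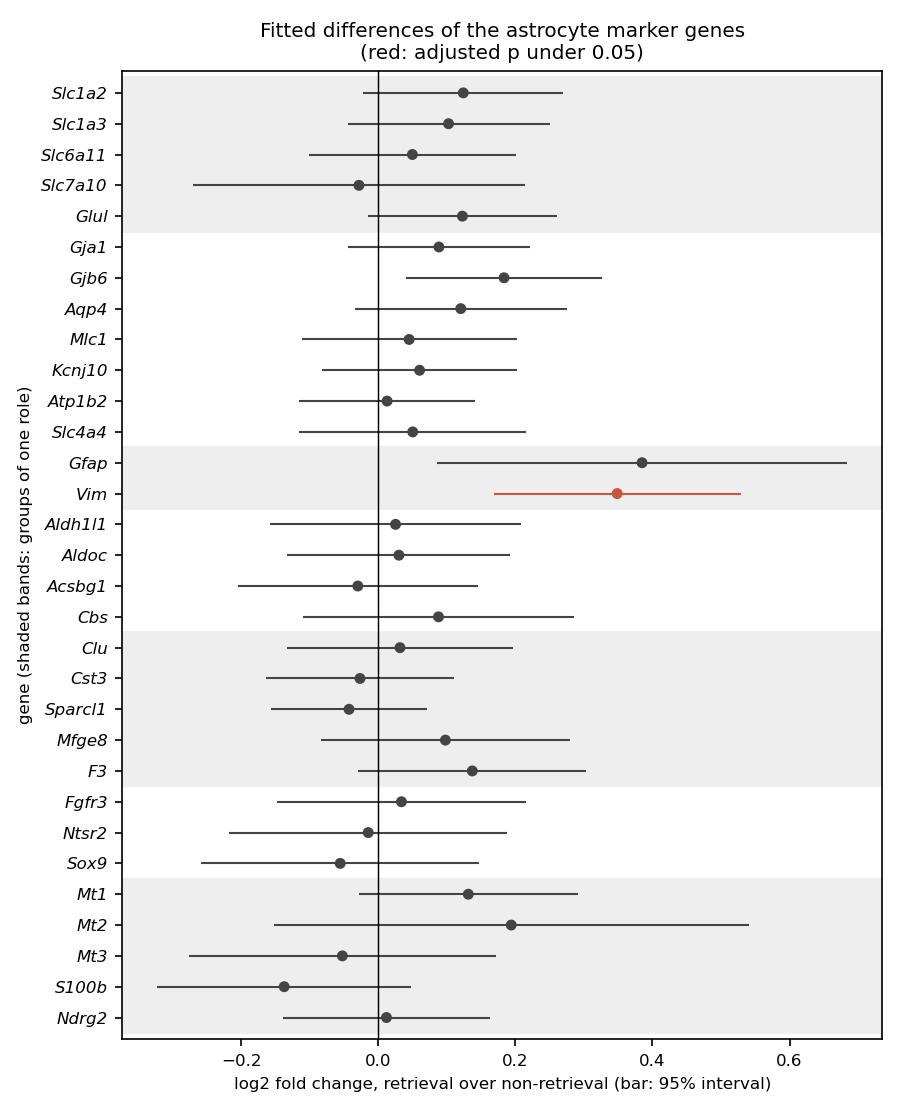
Log2 fold change of each astrocyte marker, retrieval over non-retrieval (x axis), from edgeR, with the 95% interval as a bar; genes are ordered by role. Vim, in red, is the marker past an adjusted p of 0.05, Gfap has a larger fold change and a wider interval, and the intervals of 28 markers include 0.

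The sequences before the start sites are shown for both filament genes, the connexin pair and the metallothionein cluster. Windows of 250 bases before the RefSeq start site (build GRCm38.p6) were matched for 26 of the 31 markers and searched on both strands for the letters of AP-1 (TGANTCA), EGR (GCGNGGGCG), STAT (TTCNNNGAA), the CArG box, the glucocorticoid response element, the metal response element (TGCACNC or TGCGCNC) and the TATA box (TATAAA). No match overlapped another. Matches are in capitals, each sequence runs 5′ to 3′ on the gene's strand, and a match describes letters and not a bound site. The whole Vim window lies in an exon of a longer Vim transcript of GENCODE M21, so only 30 bases around its TATA box are given (chr2:13574267-13574296, plus strand). The others are Gfap (chr11:102897201-102897450, minus strand), Gja1 (chr10:56377050-56377299, plus), Gjb6 (chr14:57133612-57133861, minus), Mt1 (chr8:94178839-94179081, plus, 243 bases that end where its annotated exon begins), Mt2 (chr8:94172368-94172617, plus) and Mt3 (chr8:94152357-94152606, plus).
Vim: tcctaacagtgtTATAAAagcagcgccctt
Gfap: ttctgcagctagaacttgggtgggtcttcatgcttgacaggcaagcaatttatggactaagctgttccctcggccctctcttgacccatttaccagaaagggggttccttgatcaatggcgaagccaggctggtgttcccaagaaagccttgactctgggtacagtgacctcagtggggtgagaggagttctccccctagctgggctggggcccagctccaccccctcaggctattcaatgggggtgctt
Gja1: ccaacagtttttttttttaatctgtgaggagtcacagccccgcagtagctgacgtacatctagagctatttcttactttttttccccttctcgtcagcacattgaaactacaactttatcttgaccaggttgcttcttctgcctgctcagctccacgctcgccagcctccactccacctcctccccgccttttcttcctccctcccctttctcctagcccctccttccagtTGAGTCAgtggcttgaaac
Gjb6: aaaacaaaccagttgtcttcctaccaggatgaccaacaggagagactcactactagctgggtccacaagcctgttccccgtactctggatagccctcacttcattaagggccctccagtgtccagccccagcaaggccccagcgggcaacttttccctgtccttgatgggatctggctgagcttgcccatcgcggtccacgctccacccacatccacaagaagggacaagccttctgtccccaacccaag
Mt1: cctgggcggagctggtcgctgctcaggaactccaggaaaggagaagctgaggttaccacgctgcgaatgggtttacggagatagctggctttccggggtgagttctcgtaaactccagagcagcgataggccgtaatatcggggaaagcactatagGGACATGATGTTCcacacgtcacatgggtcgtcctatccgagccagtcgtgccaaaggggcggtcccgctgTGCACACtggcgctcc
Mt2: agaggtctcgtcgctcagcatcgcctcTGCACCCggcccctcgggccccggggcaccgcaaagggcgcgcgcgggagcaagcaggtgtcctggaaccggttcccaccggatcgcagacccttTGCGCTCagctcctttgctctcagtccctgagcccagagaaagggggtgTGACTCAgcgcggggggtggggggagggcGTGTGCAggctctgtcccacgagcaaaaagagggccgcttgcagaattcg
Mt3: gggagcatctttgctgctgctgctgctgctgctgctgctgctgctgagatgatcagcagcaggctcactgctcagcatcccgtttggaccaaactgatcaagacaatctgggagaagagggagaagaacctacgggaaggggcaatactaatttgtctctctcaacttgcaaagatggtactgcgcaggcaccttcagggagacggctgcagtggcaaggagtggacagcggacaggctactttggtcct

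The Vim window held a TATA box that begins 32 bases before the start site, letters found in 12.4% of all 32851 promoter windows of this length. Gfap, Gjb6 and Mt3 held none of the 7 motifs, and Gja1 held AP-1 letters 19 bases before its start. Mt2 held AP-1 letters and 3 metal response elements, and Mt1 held 1 metal response element and 1 glucocorticoid response element, whose letters occur in 0.387% of all windows. AP-1 letters were found for 3 of the 26 markers (F3, Gja1 and Mt2), beside 6.75% of all windows, and metal response elements for 7 of 26, beside 21.4%. EGR letters were found for Fgfr3 (4.70% of all windows), STAT letters for Acsbg1, Aldoc, Ntsr2 and Slc1a3 (7.02%), TATA boxes also for Ndrg2 and Slc1a3, and the CArG box for no marker (1.47%).

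The filament genes had the largest log2 fold changes of the 31. Vim (ENSMUSG00000026728, chromosome 2, 13573927 to 13582826, GRCm38) encodes vimentin, the intermediate filament protein of immature and reactive astrocytes and of many cells outside the neural lineage. Its level was 23.6, 22.6, 22.3 and 25.0 CPM in non-retrieval replicates 1 to 4 and 26.6, 33.7, 27.9 and 30.96 CPM in retrieval replicates 1 to 4. The retrieval values lay wholly above those of the other group, with replicates 2 and 4 highest. Vim thus rose from 23.4 ± 1.22 CPM to 29.8 ± 3.20 CPM (SD, n = 4), by 0.35 on the log2 scale (SE 0.09, edgeR adjusted p = 0.0284). The call was lost on leaving out any of 5 libraries, non-retrieval replicates 1, 2 and 3 and retrieval replicates 2 and 4 (log2 fold change 0.28 to 0.35, edgeR adjusted p 0.0533 to 0.0952).

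Gfap (ENSMUSG00000020932, chromosome 11, 102887336 to 102900912, GRCm38) encodes the filament protein that defines mature astrocytes in histology and is low in most grey-matter astrocytes of the cortex. It was at 63.9, 76.8, 53.1 and 71.4 CPM in non-retrieval replicates 1 to 4 and at 75.7, 109, 62.0 and 99.0 CPM in retrieval replicates 1 to 4. Retrieval replicates 2 and 4 were the highest of the 8 libraries, while retrieval replicates 1 and 3 lay within the non-retrieval range. The group means were 66.3 ± 10.3 and 86.5 ± 21.6 CPM (SD, n = 4), and their log2 difference of 0.38 (SE 0.14, 95% interval 0.09 to 0.68) did not pass (edgeR adjusted p = 0.147). Without retrieval replicate 3 the log2 fold change was 0.52 and passed (edgeR adjusted p = 0.0388), and without retrieval replicate 2 it was 0.25 (edgeR adjusted p = 0.348).

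Retrieval replicates 2 and 4, the highest for Vim and Gfap, were also the highest for oligodendrocyte markers. Of these 12 markers, 7 rose (58.3%, beside 4.57% of all tested genes), and their summed level was 3444 to 4062 CPM in non-retrieval and 4176 to 6051 CPM in retrieval. Their count of calls was 3 on leaving out any of 4 libraries, numbers 3 and 4 of non-retrieval and numbers 2 and 4 of retrieval, 4 without non-retrieval replicate 1, and 1 without retrieval replicates 2 and 4 together. The mean log2 CPM of these markers was 6.72 to 6.92 in non-retrieval and 6.95 to 7.41 in retrieval, without overlap. As a covariate it is thus partly confounded with group, and a lost call does not show that a gene follows these markers. With this covariate, the log2 fold change was 0.17 for Vim (SE 0.13, edgeR adjusted p = 0.617) and -0.20 for Gfap (SE 0.15, edgeR adjusted p = 0.622), and the calls over all genes fell to 120. Without retrieval replicates 2 and 4, a choice made after the data were seen, it was 0.22 for Vim (edgeR adjusted p = 0.284) and 0.05 for Gfap (edgeR adjusted p = 0.863). Markers of other cells that make vimentin were measured as well. The summed level of 8 endothelial markers was 224 to 246 CPM in non-retrieval and 212 to 261 CPM in retrieval, with none called. That of 7 mural cell markers was 147 to 154 and 147 to 162 CPM, with Myh11 called. The Myh11 call was lost on leaving out any 1 library (edgeR adjusted p 0.0556 to 0.132). It was also lost with upper-quartile scaling, without a low-count filter and with the length and GC correction (edgeR adjusted p = 0.0609, 0.072 and 0.0762). The summed level of 7 meningeal fibroblast markers was 20.2 to 33.2 and 26.9 to 37.3 CPM, with Col1a2 called. The Col1a2 call was lost on leaving out any of 5 libraries, numbers 1 to 3 of non-retrieval and numbers 3 and 4 of retrieval (edgeR adjusted p 0.0525 to 0.0929). It was also lost with the length and GC correction (edgeR adjusted p = 0.121). With the oligodendrocyte covariate neither Myh11 nor Col1a2 was called (edgeR adjusted p = 0.387 and 0.12). The 4 tested of 8 ependymal and choroid plexus markers summed to 5.49 to 9.39 and 6.87 to 17.0 CPM, highest in retrieval replicate 2, with none called. No marker of these 4 lists, including those below the filter, was at 0 in all libraries. The part of such cells in the Vim result was not tested.

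**Figure D2:**
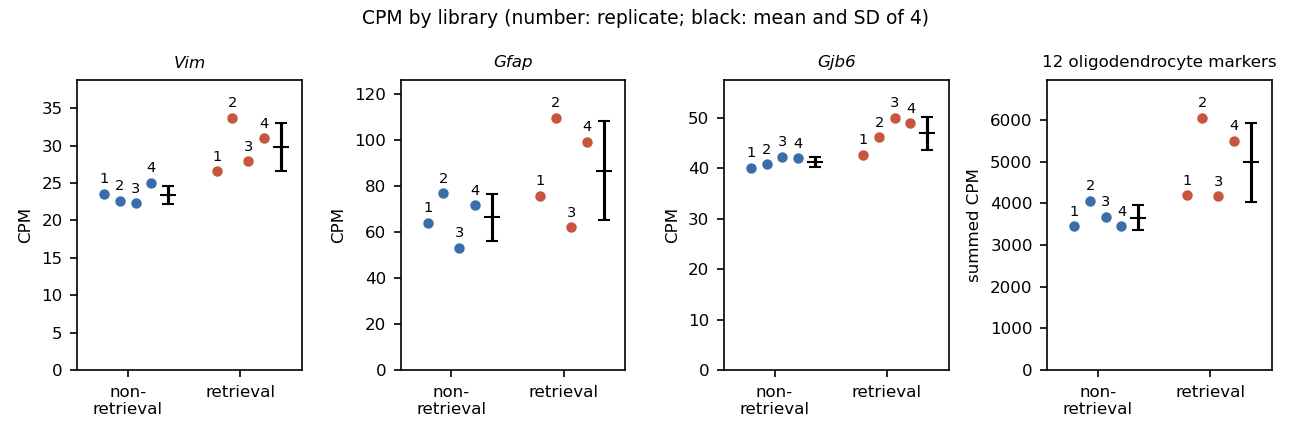
CPM of Vim, Gfap and Gjb6 and summed CPM of 12 oligodendrocyte markers (y axes, starting at 0) in each library, numbered by replicate, with the mean and SD of 4 libraries in black. Retrieval replicates 2 and 4 are the highest libraries for Vim, Gfap and the oligodendrocyte markers, and retrieval replicates 3 and 4 for Gjb6.

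Genes of transmitter and amino acid uptake did not pass the test. Slc1a2 encodes GLT-1, the main glutamate transporter of the forebrain, and had the highest CPM of the 31 genes. It was at 3242, 3117, 3217 and 2750 CPM in non-retrieval replicates 1 to 4 and at 3159, 3157, 3671 and 3446 CPM in retrieval replicates 1 to 4, groups that overlap, with a log2 fold change of 0.12 (SE 0.07, edgeR adjusted p = 0.360). Slc1a3, which encodes the glutamate transporter GLAST, went from 496 ± 23.9 to 533 ± 50.7 CPM (SD, n = 4), a log2 difference of 0.10 (edgeR adjusted p = 0.463). Glul encodes glutamine synthetase, which turns the glutamate taken up into glutamine for return to neurons. Its level was 1349, 1433, 1459 and 1425 CPM in non-retrieval replicates 1 to 4 and 1355, 1567, 1648 and 1599 CPM in retrieval replicates 1 to 4. Retrieval replicates 2 to 4 were above every non-retrieval library and replicate 1 was not, and the log2 fold change was 0.12 (SE 0.07, edgeR adjusted p = 0.335), or 0.19 and called without retrieval replicate 1 (edgeR adjusted p = 0.0368). Slc6a11, which encodes the GABA transporter GAT-3, differed by 0.05 on the log2 scale (edgeR adjusted p = 0.759). Slc7a10, the gene of the small neutral amino acid transporter Asc-1, was lowest in retrieval replicate 1 with 19.1 CPM, the remaining libraries lying between 24.9 and 29.9 CPM (log2 fold change -0.03, edgeR adjusted p = 0.927).

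All 7 genes for junctions, water and ion transport had a log2 fold change above 0, from 0.01 to 0.18, and none passed, but Atp1b2 was below 0 with upper-quartile scaling (-0.01), and Atp1b2, Slc4a4, Mlc1 and Kcnj10 were each below 0 under at least 1 other alternative given in the closing section. Gjb6 encodes connexin 30, a gap junction protein that in the cortex is made mainly by astrocytes, and lies on chromosome 14 from 57123303 to 57133611 (ENSMUSG00000040055, GRCm38). It was at 40.1, 40.9, 42.3 and 42.0 CPM in non-retrieval replicates 1 to 4 and at 42.7, 46.2, 50.02 and 48.9 CPM in retrieval replicates 1 to 4. Every retrieval library was above every non-retrieval library, by as little as 42.7 against 42.3 CPM, and the means were 41.3 ± 1.01 and 47.0 ± 3.26 CPM (SD, n = 4). The log2 fold change was 0.18 (SE 0.07, 95% interval 0.04 to 0.33, edgeR adjusted p = 0.147), and without retrieval replicate 1 it was 0.23 and passed (edgeR adjusted p = 0.0328). Gja1, whose product connexin 43 is the other main astrocytic gap junction protein, was at 154 ± 4.80 and 164 ± 11.3 CPM (SD, n = 4) and differed by 0.09 on the log2 scale (edgeR adjusted p = 0.486).

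Aqp4 encodes the water channel of astrocyte end-feet. It was at 74.9, 68.9, 74.0 and 71.8 CPM in non-retrieval and at 71.6, 71.9, 83.6 and 87.7 CPM in retrieval replicates 1 to 4, so that retrieval replicates 3 and 4 were highest and 1 and 2 lay within the other group (log2 fold change 0.12, edgeR adjusted p = 0.406). Kcnj10, the gene of the potassium channel Kir4.1, had a log2 fold change of 0.06, Mlc1, a membrane protein of perivascular processes, 0.05, Slc4a4, a sodium bicarbonate cotransporter, 0.05, and Atp1b2, the glial beta subunit of the sodium pump, 0.01 (edgeR adjusted p 0.680 to 0.937).

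**Figure D3:**
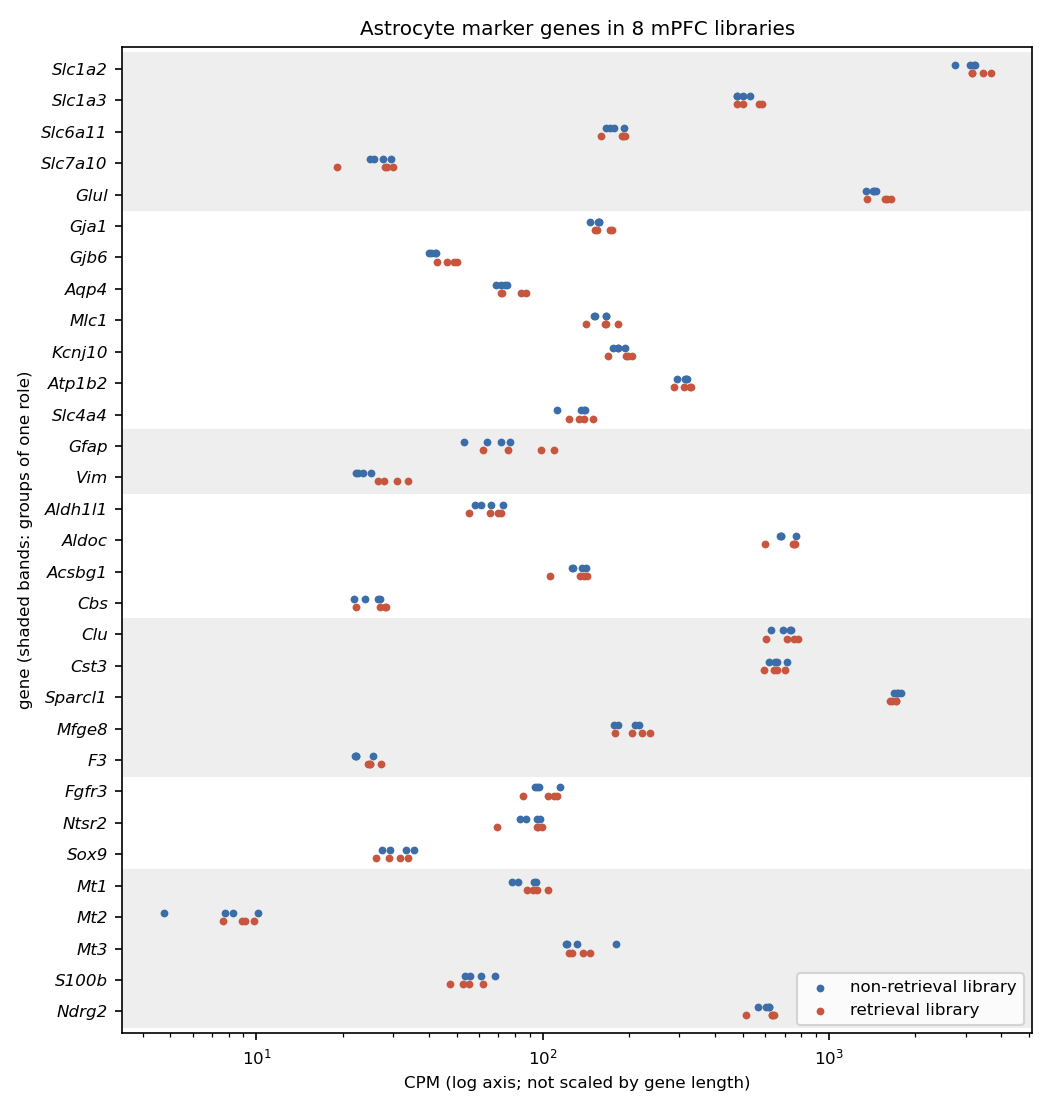
CPM (log x axis, not scaled by gene length) of the 31 astrocyte markers in the 4 non-retrieval and 4 retrieval libraries, 1 point per library, with genes grouped by role. The groups lie apart for Vim and Gjb6 and overlap for the other 29 genes.

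None of the 4 metabolic enzymes passed the test. Aldoc, the brain form of fructose-bisphosphate aldolase, was at 681, 672, 680 and 768 CPM in non-retrieval and at 597, 761, 748 and 753 CPM in retrieval replicates 1 to 4, with retrieval replicate 1 lowest of all (log2 fold change 0.03, 95% interval -0.13 to 0.19, edgeR adjusted p = 0.875). Aldh1l1, a folate enzyme widely used to mark astrocytes, had a log2 fold change of 0.03 (-0.00042 with upper-quartile scaling), Acsbg1, an acyl-CoA synthetase, -0.03, and Cbs, which makes cystathionine from homocysteine and serine, 0.09 (edgeR adjusted p 0.662 to 0.910). The 95% intervals of the 4 genes ran from -0.21 at the lowest to 0.29 at the highest.

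Secreted and surface proteins did not pass either. Sparcl1 encodes hevin, an extracellular protein that promotes synapse formation, and was the steadiest marker, with 1779, 1684, 1723 and 1740 CPM in non-retrieval and 1637, 1656, 1710 and 1721 CPM in retrieval replicates 1 to 4. The lowest and highest libraries differed by 1.09-fold, and the log2 fold change was -0.04 (SE 0.05, edgeR adjusted p = 0.723). Clu, which encodes the secreted chaperone clusterin, stood at 696 ± 49.0 and 711 ± 79.2 CPM and Cst3, the gene of the protease inhibitor cystatin C, at 659 ± 38.4 and 647 ± 45.1 CPM (SD, n = 4; edgeR adjusted p 0.870 for both). Mfge8, which bridges phosphatidylserine on cells to phagocytes, differed by 0.10 on the log2 scale (edgeR adjusted p = 0.583). F3, the gene of tissue factor, which starts blood coagulation, was at 22.2, 22.2, 22.2 and 25.6 CPM in non-retrieval and at 24.5, 25.0, 27.2 and 24.8 CPM in retrieval replicates 1 to 4. Non-retrieval replicate 4 overlapped the retrieval range and the other 3 did not (log2 fold change 0.14, SE 0.08, edgeR adjusted p = 0.376).

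Among receptors and the transcription factor, Fgfr3, a fibroblast growth factor receptor, was at 100.4 ± 9.84 and 103 ± 11.9 CPM, Ntsr2, a neurotensin receptor, at 91.1 ± 6.95 and 90.2 ± 13.95 CPM, and Sox9, a transcription factor of the astrocyte lineage, at 31.4 ± 3.64 and 30.2 ± 3.37 CPM (SD, n = 4). Their log2 fold changes were 0.03, -0.01 and -0.06 (edgeR adjusted p 0.808 to 0.955).

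The metallothioneins are small cysteine-rich proteins that bind zinc and copper; Mt1 and Mt2 are induced by metals and glucocorticoids, while Mt3 is the brain form. The 3 genes lie in 1 cluster on chromosome 8 (GRCm38), Mt3 from 94152607 to 94154146, Mt2 from 94172664 to 94173568 and Mt1 from 94179082 to 94180327. Mt1 was at 94.7, 77.8, 81.7 and 92.9 CPM in non-retrieval and at 88.0, 104, 92.8 and 95.2 CPM in retrieval replicates 1 to 4 (log2 fold change 0.13, SE 0.08, edgeR adjusted p = 0.377). Mt2 was at 10.1, 4.75, 7.73 and 8.28 CPM in non-retrieval and at 9.79, 7.67, 9.12 and 8.91 CPM in retrieval replicates 1 to 4, and its interval was the widest of the 31 genes (log2 fold change 0.19, 95% interval -0.15 to 0.54, edgeR adjusted p = 0.567). Mt3 was at 121, 180, 121 and 132 CPM in non-retrieval and at 126, 146, 124 and 138 CPM in retrieval replicates 1 to 4 (log2 fold change -0.05, edgeR adjusted p = 0.836). The groups overlapped for all 3 genes, and non-retrieval replicate 2 was the lowest of the 8 libraries for Mt1 and Mt2 and the highest for Mt3.

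Leaving out that library gave log2 fold changes of 0.08 for Mt1, 0.03 for Mt2 and 0.10 for Mt3, none of them past the test. Of 17 genes of zinc transport and metal response, 1 rose (5.88%, beside 4.57% of all tested genes) and 16 did not pass. It was Mtf1, the transcription factor that binds metal response elements such as those shown above for Mt1 and Mt2, from 28.4 ± 3.44 to 36.8 ± 2.44 CPM (SD, n = 4), a rise of 0.37 in log2 (SE 0.09, edgeR adjusted p = 0.0244). Its call was lost on leaving out 1 of 3 libraries, non-retrieval replicates 3 and 4 and retrieval replicate 4 (edgeR adjusted p 0.0631 to 0.0796), and with the oligodendrocyte covariate (0.35, edgeR adjusted p = 0.327). The other cytosolic markers were S100b, a calcium-binding protein, with the lowest log2 fold change of the 31 genes (-0.14, SE 0.09, 95% interval -0.32 to 0.05, edgeR adjusted p = 0.432), and Ndrg2, a member of the NDRG family, with 0.01 (edgeR adjusted p = 0.952; -0.01 with upper-quartile scaling).

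Levels between genes were compared per kilobase of gene model (RPKM, the mean of 8 libraries), which depends on the length the deposited table gives to each gene. The highest were Sparcl1 with 581, Cst3 with 516 and Glul with 445 RPKM, and the order of these 3 was the same in all 8 libraries. Slc1a2 followed with 245 RPKM, Aldoc with 217 and Clu with 205, and neighbours among these 3 changed places in 1 library each. Gfap, with 18.1 RPKM, ranked 19 of the 31, beside both connexin genes (16.5 RPKM for Gjb6 and 15.5 for Gja1), and Vim was the lowest with 5.61 RPKM. Of the 30 neighbouring pairs in this order, 14 held in all 8 libraries and 16 did not.

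The markers also varied together between libraries of the same group. Retrieval replicate 1 was the lowest of the 8 libraries for 16 of the 31 markers and the lowest of the 4 retrieval libraries for 27, and it was the highest for none. Retrieval replicates 2, 3 and 4 held the highest value of 22 markers and the lowest of none. The shares of all tested genes with such extremes were not computed, so these counts do not show a trait particular to the markers. Retrieval replicate 1 had 27 markers below their own 8-library mean, and non-retrieval replicates 1 and 2 had 24 and 23. The median marker lay 0.14 below its 8-library mean on the log2 scale in retrieval replicate 1 (a value of -0.142). It lay 0.09, 0.08 and 0.10 above that mean in retrieval replicates 2, 3 and 4. In non-retrieval replicates 1 to 4 these medians were -0.091, -0.0701, -0.0039 and 0.0284, so non-retrieval replicates 1 and 2 were low as well. Over all tested genes these medians lay between -0.0016 and 0.0075 in the 8 libraries. Scaling places the typical gene near 0 in every library, so that range was fixed in advance and is no background for the markers. Retrieval replicate 1 also differed from the other retrieval libraries over all genes. The mean chi-square per gene, scaled to depth, was 13.2 to 25.2 for its pairs with them and 6.27 to 10.4 for pairs among them. The summed level of the 31 markers was 11041 CPM in retrieval replicate 1, between 12196 and 12799 CPM in retrieval replicates 2 to 4, and 11548 to 11948 CPM in non-retrieval.

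The summed level of some other lists was also the lowest of the 8 libraries in retrieval replicate 1. These were microglia markers (312 CPM against 329 to 368 CPM), endothelial markers (212 against 224 to 261 CPM) and interneuron markers (866 against 916 to 1021 CPM). Their mean log2 CPM was the lowest there as well. Summed levels were also lowest for cortical excitatory neuron markers (6668 against 7176 to 7968 CPM) and mural cell markers (146.9 against 147.2 to 162 CPM). The mean log2 CPM of the cortical markers, 7.93, lay within the non-retrieval range of 7.88 to 7.95. That of the mural markers, 3.80, lay within 3.69 to 3.90. The summed level of retrieval replicate 1 was the highest for meningeal fibroblast markers (37.3 against 20.2 to 34.8 CPM). It was highest as well for genes of zinc transport and metal response (1137 against 1020 to 1109 CPM). It was neither lowest nor highest for oligodendrocyte markers (4188 CPM), striatal projection neuron markers (418 CPM) and ependymal and choroid plexus markers (6.87 CPM). The same held for the reactive astrocyte genes described below (205 CPM). Their mean log2 CPM was the highest there, 1.95 against 1.58 to 1.93. The part of these differences in the astrocyte result was not tested. Without retrieval replicate 1 the markers' median log2 fold change was 0.12, with 28 of 31 above 0 and 3 called, Vim, Gjb6 and Glul, and over all genes 8.02% of tested genes were called. Within groups, the SD of log2 CPM was 0.12 for the median marker, lowest for Sparcl1 (0.03) and highest for Mt2 (0.34) and Gfap (0.31). It was 0.11 for the median of the 10305 tested genes at or above the mean CPM of Mt2, the lowest marker.

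**Figure D4:**
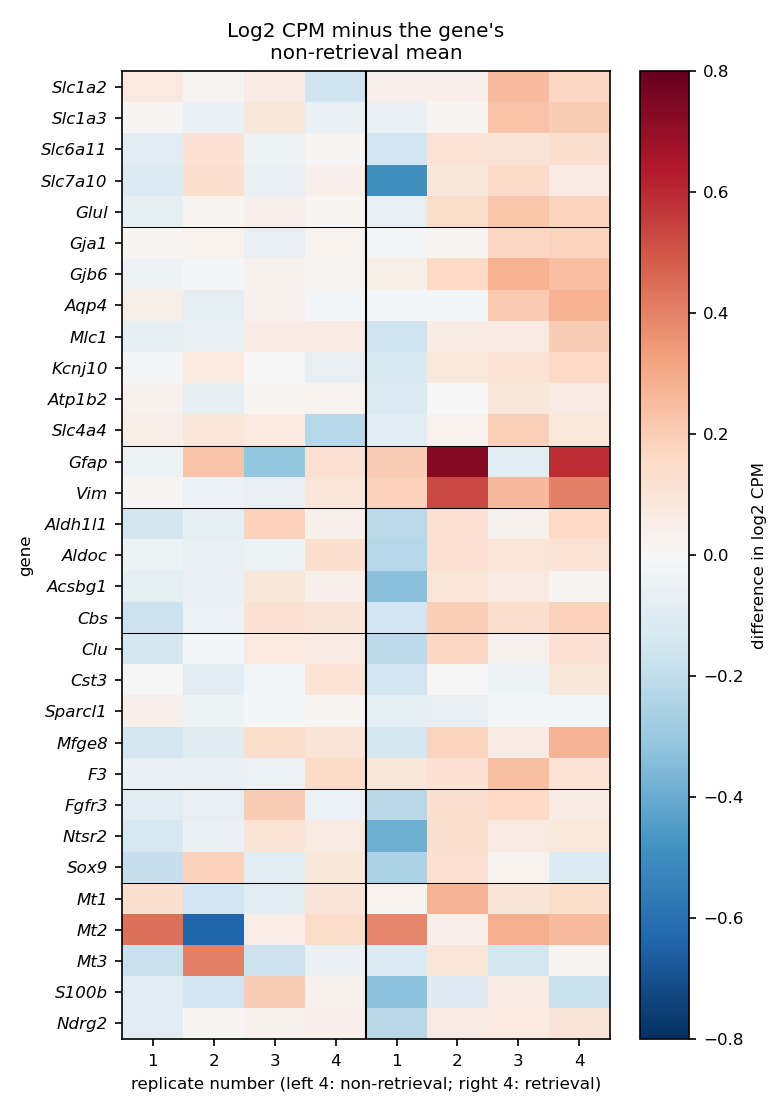
Log2 CPM of each astrocyte marker (rows, grouped by role) in each library (columns) minus the gene's mean in non-retrieval, on a color scale from blue (lower) to red (higher). Retrieval replicate 1 is blue for most rows, retrieval replicates 2 and 4 are darkest red for Gfap and Vim, and non-retrieval replicate 2 is low for Mt2 and high for Mt3.

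Of 42 other astrocyte genes outside the 31, 5 rose (11.9%, beside 4.57% of all tested genes), none fell, and 37 did not pass, with a median log2 fold change of 0.08. An unadjusted edgeR p under 0.05 was reached by 6 of the 42 (14.3%, beside 18.5% of all tested genes). This list too was drawn up with earlier results of these data known. Ppp1r3c, which targets protein phosphatase 1 to glycogen, was at 28.1, 27.8, 27.8 and 27.3 CPM in non-retrieval and at 38.1, 37.1, 46.0 and 45.1 CPM in retrieval replicates 1 to 4, groups that do not overlap (log2 fold change 0.58, SE 0.08, edgeR adjusted p = 0.000435). Dio2, the deiodinase by which astrocytes activate thyroid hormone, was at 63.2 ± 9.70 CPM without and 101 ± 16.9 CPM with retrieval (SD, n = 4), a rise of 0.68 in log2 (SE 0.11, edgeR adjusted p = 0.00226). Thbs4, a thrombospondin, was at 3.23 ± 1.32 CPM and 8.37 ± 3.83 CPM (SD, n = 4), a rise of 1.38 in log2 (SE 0.28, edgeR adjusted p = 0.00955), with 13.98 CPM in retrieval replicate 2 and a range of 5.74 to 7.64 CPM over the remaining 3 of retrieval. Id4, an inhibitor of basic helix-loop-helix factors, rose by 0.32 on the log2 scale (SE 0.07, edgeR adjusted p = 0.0128). The fifth of these calls, the engulfment receptor Megf10, is named here after its value was seen and rose by 0.32 on the log2 scale (edgeR adjusted p = 0.0496). It was not called on leaving out any 1 library other than retrieval replicate 1 (edgeR adjusted p 0.0692 to 0.162), with upper-quartile scaling (edgeR adjusted p = 0.0797) or with the oligodendrocyte covariate (0.05 in log2, edgeR adjusted p = 0.898). Over all 42 genes, retrieval replicate 1 was the lowest of the 8 libraries for 16 and above all 4 non-retrieval libraries for 11. The shares of all tested genes with such extremes were not computed. The summed level of the 42 genes was lowest in retrieval replicate 1, 3586 CPM against 3631 to 4363 CPM in the others, and Apoe held 1208 CPM of it. Their mean log2 CPM there was 5.12, the lowest of retrieval but within the 5.09 to 5.17 of non-retrieval. On leaving out non-retrieval replicate 4, Id4 was not called either (edgeR adjusted p = 0.0560), and 3 of the 42 genes were. Without retrieval replicates 2 and 4 the calls were 2, Ppp1r3c and Dio2. With the oligodendrocyte covariate Ppp1r3c and Dio2 were still called (0.66 and 0.92 in log2, edgeR adjusted p = 0.0133 and 0.00617), and Thbs4 and Id4 were not (0.39 and 0.21, edgeR adjusted p = 0.635 and 0.424). That covariate is partly confounded with group, as given above.

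Genes raised in reactive astrocytes were examined because Gfap and Vim belong to that response. Of 35 such genes, 28 passed the filter, 3 of these rose (10.7%, beside 4.57% of all tested genes) and 25 did not pass. The genes that rose were Hspb1, a small heat shock protein (log2 fold change 1.08, SE 0.18, edgeR adjusted p = 0.00197), Cd44, a hyaluronan receptor (0.70, SE 0.18, edgeR adjusted p = 0.0322), and Ptgs2, the inducible cyclooxygenase that cortical neurons also express (0.76, SE 0.09, edgeR adjusted p = 0.000133). Cd44 stood at 1.56 ± 0.17 and 2.54 ± 0.12 CPM (SD, n = 4), and its call was lost on leaving out any 1 library other than retrieval replicate 1 (edgeR adjusted p 0.0557 to 0.101), and with the oligodendrocyte covariate (0.73, edgeR adjusted p = 0.322). Serpina3n, a protease inhibitor raised in reactive astrocytes, had a log2 fold change of -0.06 (SE 0.09, edgeR adjusted p = 0.780), and Lcn2, Steap4 and Cxcl10 of the same set were among 7 genes below the filter. By set, 2 of 8 tested genes common to reactive states rose, 0 of 11 of the set named A1 and 1 of 9 of the set named A2, and 5 of the 28 (17.9%, beside 18.5% of all tested genes) had an unadjusted p under 0.05.

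**Figure D5:**
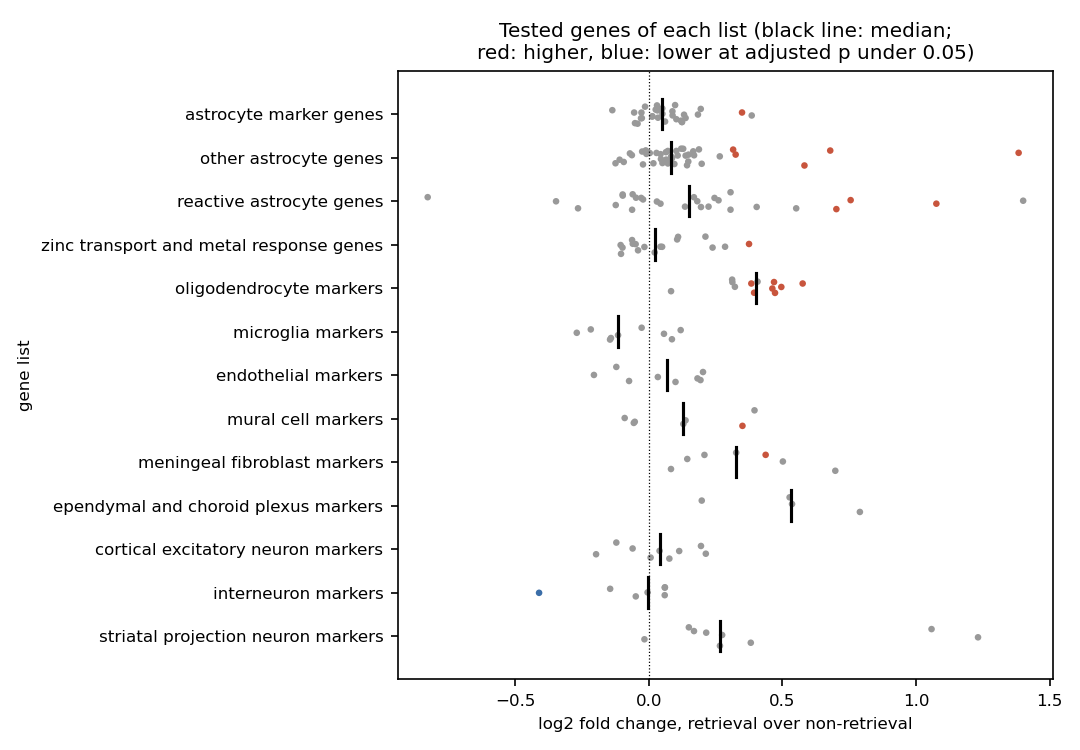
Log2 fold change, retrieval over non-retrieval (x axis), of every tested gene of each list (rows), with the median as a black line and genes past an adjusted p of 0.05 in red (higher) or blue (lower). The 31 astrocyte markers lie close to 0 with Vim in red, and the oligodendrocyte markers all lie above 0 with 7 in red.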

How the data were processed

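Per the labels, RNA came from the RNeasy Micro kit and libraries from the NEBNext Ultra kit. The authors deposited 1 table of read counts with gene lengths, in which no scaling had been applied. Alignment and counting tools named in the submitters' processing notes are featureCounts 1.5.0-p3 and HISAT2 2.0.5, with build GRCm38. Neither annotation release nor strand setting was given there. Counts of Slc1a2, Slc7a10, Glul, Aldh1l1, Fgfr3 and Mt2 may be affected by genes whose exons overlap theirs in GENCODE M21, which was not tested.

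Columns were matched to samples by title. Genes were filtered with filterByExpr of edgeR 4.0.16 (R 4.3.3), scaled with TMM factors and tested with the two-sided quasi-likelihood F test over all 8 libraries with group as the only term and Benjamini-Hochberg adjustment over all 16745 tested genes. CPM and RPKM were computed from these counts, log2 CPM with a prior count of 2. SEs are the log2 fold change over the root of the F statistic. Alternatives used DESeq2 1.42.0, limma 3.58.1 and others given in the closing section. All 31 markers are named, and of the other lists up to 4 called genes with the smallest p. Serpina3n, Lcn2, Steap4 and Cxcl10 were named after their values were seen. Markers and lists were chosen with earlier results of these data known.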

Additional observations from a re-analysis of the deposited data

Results flagged for a closer look

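Within each group of 4 libraries, the gap between the most extreme library and its nearest neighbour was compared with the group's range for each marker. In 10 of 62 groups the ratio was above the 95% critical value of Dixon's test for 4 samples. Chance alone gives about 1 in 20 groups on average, but these groups are not independent. All markers were measured in the same libraries and varied together between them. The share of such groups over all tested genes was not computed, so an excess among the markers is not shown. Retrieval replicate 1 was the low library in 5 of the 10 groups. It was at 159 CPM for Slc6a11 against 190 to 193 CPM in the other 3 retrieval libraries (ratio 0.898), at 19.1 CPM for Slc7a10 against 28.1 to 29.9 CPM (0.833), at 597 CPM for Aldoc against 748 to 761 CPM (0.922), at 69.4 CPM for Ntsr2 against 95.6 to 99.4 CPM (0.872) and at 515 CPM for Ndrg2 against 631 to 645 CPM (0.895). Non-retrieval replicate 4 was low for Slc4a4 (112 CPM against 136 to 141 CPM, ratio 0.835) and high for Aldoc (768 CPM against 672 to 681 CPM, 0.903) and F3 (25.6 CPM against 22.2 CPM in each of the other 3, 0.978). Non-retrieval replicate 3 was low for Gja1 (147 CPM against 155 to 157 CPM, 0.875) and high for Fgfr3 (115 CPM against 94.1 to 96.8 CPM, 0.872).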

How the results depend on the processing

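Vim kept its direction under every alternative run and its call under 8 of the 10 that leave out no single library, the exceptions being the oligodendrocyte marker covariate and, chosen after the data were seen, the omission of retrieval replicates 2 and 4. The covariate did not overlap between the groups, so its fit cannot separate those markers from group. The number of markers called was 1 with RLE or upper-quartile scaling, the stricter filter and DESeq2, 2 without a low-count filter (Gfap and Vim), 3 with limma-voom and quality weights (Gjb6, Gfap and Vim), 2 with the length and GC offset (Gjb6 and Vim), 0 with the covariate, 0 without retrieval replicates 2 and 4, and 0 to 3 with 1 library left out. The markers' median log2 fold change was 0.0933 with limma-voom, -0.0497 with the covariate, -0.0219 without retrieval replicates 2 and 4, and 0.0264 to 0.119 with 1 library left out. Over all genes, 766 were called (615 higher, 151 lower). Without a filter 898 were higher and 241 lower, of 31030 tested; with the length and GC offset (loess span 0.5, 16727 genes) 1381 were called, 747 higher and 634 lower, so that 54.1% were higher against 80.3%. Lower calls numbered 236 with DESeq2 and 193 with upper-quartile scaling; limma-voom called 1619 (1110 and 509), the covariate fit 120 (110 and 10) and the fit without retrieval replicates 2 and 4 382 (325 and 57). With 1 library left out, 330 to 1360 genes were called, 283 to 1032 higher and 45 to 328 lower. The replicate block, in which numbers 1 to 4 are taken as pairs, called 1791 genes (1274 higher, 517 lower) and 3 markers (Gjb6, Gfap and Vim). Deviations of same-numbered libraries from their group means correlated at 0.353, 0.115, 0.037 and 0.138 over 14535 genes; each library correlated best with its own number, a hint from the data and not from the design, and the numbers were not used as pairs.

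Of 310 marker values under these alternatives, 33 changed sign, none of them past the threshold in either fit, and of 248 with 1 library left out, 29 did. With upper-quartile scaling the log2 fold changes that changed sign were -0.0131 for Atp1b2, -0.00042 for Aldh1l1, -0.0138 for Ndrg2. With limma-voom they were 0.04 for Slc7a10, 0.00646 for Acsbg1, 0.0251 for Cst3, 0.04 for Ntsr2. With the length and GC offset they were -0.000807 for Atp1b2, -0.0186 for Slc4a4, -0.0117 for Aldh1l1, -0.0651 for Fgfr3. With the covariate they were -0.0781 for Slc6a11, -0.0538 for Mlc1, -0.0469 for Kcnj10, -0.196 for Gfap, -0.14 for Aldh1l1, -0.0497 for Aldoc, -0.0542 for Cbs, -0.144 for Clu, -0.0736 for Mfge8, -0.0495 for Fgfr3, -0.0913 for Ndrg2. Without retrieval replicates 2 and 4 they were -0.0219 for Slc6a11, -0.0471 for Mlc1, -0.00393 for Kcnj10, -0.00892 for Atp1b2, -0.092 for Aldh1l1, -0.0584 for Aldoc, -0.0158 for Cbs, -0.085 for Clu, -0.0368 for Mfge8, -0.0253 for Fgfr3, -0.0658 for Ndrg2. With 1 library left out, the values that changed sign ranged over -0.0742 to 0.0668 for Acsbg1, -0.0201 to 0.106 for Aldh1l1, -0.00151 to 0.115 for Aldoc, -0.0127 to 0.0592 for Atp1b2, -0.0154 to 0.113 for Clu, -0.0668 to 0.0221 for Cst3, -0.00671 to 0.12 for Fgfr3, -0.0106 to 0.118 for Mlc1, -0.111 to 0.101 for Mt3, -0.0189 to 0.0904 for Ndrg2, -0.0652 to 0.1 for Ntsr2, -0.0201 to 0.103 for Slc4a4, -0.0903 to 0.109 for Slc7a10, -0.116 to 0.0149 for Sox9. The causes were not tested. SEs of 0.05 to 0.16 limit what 4 libraries a group can show for single markers.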
